A study of Mus musculus with 4 samples.

Results

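Cyp17a1-low theca cells are ovarian cells that carried transcripts of the theca programme but few of Cyp17a1, the enzyme that commits steroids to androgen synthesis, and of Cyp11a1, the enzyme that cleaves the side chain of cholesterol. A member had at least 1000 UMIs (unique molecular identifiers, each counting 1 captured transcript) and at most 20% mitochondrial UMIs, and at least 3 of Lhcgr, Hsd3b1, Aldh1a1, Mgarp, Insl3 and Star with a UMI. It also had at least 1 Lhcgr UMI, no Fshr UMI, at most 1 Inhba UMI, and Cyp17a1 and Cyp11a1 together below 10 per 10000 UMIs. The rule was met by 1417 of the 30523 cells that passed the filters on UMIs and mitochondrial share. A further 1271 cells met the same rule but lay at or above the limit and are called Cyp17a1-high here. Because these counts chose the members, their shares and their differences from Cyp17a1-high cells are descriptions without a test.

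The cells came from single-cell RNA sequencing of ovaries of prepubertal mice treated from postnatal day 25, with 1 library per group. Control mice had PBS/saline. The doxorubicin group had 2 weekly doses of 3 mg/kg, the AMH group had recombinant human AMH (0.75 mg/kg), and the doxorubicin+AMH group had both agents at these doses. The second doxorubicin dose preceded collection of the ovaries by 4 hours, and each library pooled 1 ovary from each of 5 animals. The variation from animal to animal is thus unknown, and no p-value is given. The strain of the mice was not given in the sources used here. Values are listed throughout by library as control, then doxorubicin, then doxorubicin+AMH, then AMH, unless other libraries are named. Intervals are at 95% and cover counting error only.

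Theca cells surround the growing follicle. Under luteinizing hormone, received through Lhcgr, they import and synthesize cholesterol and turn it into androgens, which the granulosa cells inside the follicle convert to estrogens. They arise from stromal progenitors that respond to hedgehog ligands released by granulosa cells, and bone morphogenetic proteins (BMPs) are known to restrain androgen synthesis in cultured theca cells. AMH (anti-Müllerian hormone) is a granulosa-cell hormone of the same family as the BMPs and signals through its own type II receptor and BMP type I receptors. Doxorubicin is a chemotherapeutic that traps topoisomerase II on DNA, and the breaks that follow activate the transcription factor p53.

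Members numbered 189, 181, 476 and 571 in the 4 libraries. Their share of kept cells was 2.20% (exact Clopper-Pearson interval 1.90 to 2.53) in control and 2.83% (2.43 to 3.26) with doxorubicin. It was 6.82% (6.24 to 7.43) with doxorubicin+AMH and 6.68% (6.16 to 7.23) with AMH. Both libraries with AMH held a higher share than both libraries without it, and the intervals did not overlap between these pairs. The cells of the theca rule with no limit on Cyp17a1 and Cyp11a1 did not show this: they made up 10.4%, 8.60%, 8.32% and 7.73% of cells. Members were therefore 21.1%, 32.8%, 81.9% and 86.4% of the theca-rule cells. With the rule applied to cells thinned to 5000 UMIs, leaving out 1144, 833, 1081 and 1677 shallower cells, members were 8.53%, 11.8%, 73.5% and 79.3% of theca-rule cells. Of the kept cells that remained, thinned members were 0.833%, 0.951%, 5.07% and 6.04%, each below the interval given above for its library.

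Over all theca-rule cells, the median of Cyp17a1 and Cyp11a1 together was 41.7, 26.4, 1.06 and 0.836 per 10000 UMIs. The control library had 373 theca-rule cells at 50 or more per 10000, against 155 with doxorubicin, 13 with doxorubicin+AMH and 4 with AMH. At the other end, 160, 162, 425 and 524 cells lay below 5 per 10000. Just below the limit of 10, from 5 to 10, lay 29, 19, 51 and 47 cells, and just above it, from 10 to 20, lay 64, 48, 46 and 48. In the AMH libraries the latter were 46 of 105 and 48 of 90 Cyp17a1-high cells, whose median was 22.3 and 18.8 per 10000, against 51.7 and 44.3 without AMH. The Cyp17a1-high cells of the AMH libraries thus lay closer to the limit than those of the other 2. The member closest to the limit had 9.99, 9.72, 9.72 and 9.91 per 10000, and the nearest cell outside it 10.4, 10.0, 10.0 and 10.4. No UMI of either gene was seen in 29.1%, 39.8%, 43.3% and 46.1% of members. Cyp17a1 lies on chromosome 19 from 46667165 to 46673172 on the minus strand, and Cyp11a1 on chromosome 9 from 58006411 to 58027023 on the plus strand (mm10).

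**Figure D1:**
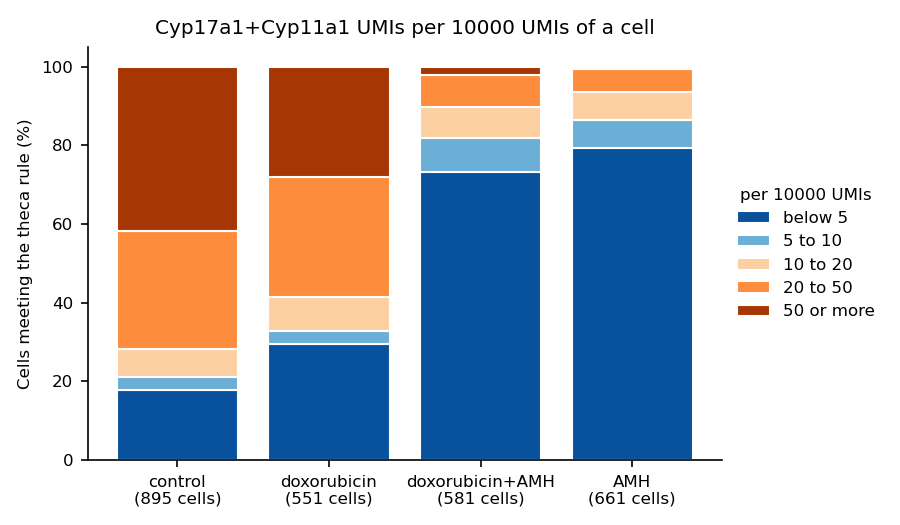
Share of theca-rule cells (y axis, %) in bands of Cyp17a1 plus Cyp11a1 per 10000 UMIs, by library, with members in the 2 blue bands below 10. The libraries with AMH hold 425 and 524 cells below 5 and 13 and 4 cells at 50 or more, and the libraries without it 160 and 162 below 5 and 373 and 155 at 50 or more.

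Members had median totals of 22119, 23926, 16161 and 15332 UMIs, against 21034, 24381.5, 23745 and 25767.5 in Cyp17a1-high cells. A single Lhcgr UMI was all that 52.4%, 47.0%, 25.8% and 25.2% of members had, against 6.80%, 5.14%, 3.81% and 7.78% of Cyp17a1-high cells. Lhcgr was also seen in 7.46%, 8.32%, 6.20% and 6.79% of kept cells outside the theca rule, and Hsd3b1 in 48 to 56% of them; how much of this is free RNA was not tested. Doublet scores marked 14.8%, 7.73%, 8.19% and 9.11% of members. Libraries shared 11 to 24 cell barcodes per pair, and 1 barcode was a member in both the doxorubicin and the AMH library.

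The members were not of 1 kind. Clustered on their own without the genes of the rule, they gave 12 groups, which fell into 3 sets. These sets were formed after the values were seen. Clusters 1, 3, 4 and 6 carried Lhcgr and Prss35 at the highest levels and are called the theca-marker clusters. Clusters 2 and 8 shared Enpep, which encodes glutamyl aminopeptidase, an enzyme that cleaves angiotensin peptides, and are called the Enpep clusters. Enpep is 1 of the 10 genes of the stroma marker list. Among the lists of cell-type markers, this one held most of cluster 2's 10 leading genes, but only 1 of them, Enpep itself. Hhip was also among the 10, and hedgehog genes were not a list in that comparison. Cluster 8 was led by Top2a, Hmmr, Ube2c, Pclaf and Hist1h1b, genes of DNA replication and mitosis. The other clusters were led by genes of other cell types, apart from cluster 12, a single AMH cell.

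The theca-marker clusters held 15, 33, 341 and 418 members, or 7.94%, 18.2%, 71.6% and 73.2% of each library's members. The Enpep clusters held 86, 75, 73 and 49 members, or 45.5%, 41.4%, 15.3% and 8.58%. Clusters led by genes of other cell types held 88, 73, 62 and 103 members, or 46.6%, 40.3%, 13.0% and 18.0%. The label of theca cells therefore goes against the data for a large share of control and doxorubicin members. It is also in doubt for the Enpep clusters, where the 10 stroma markers, Enpep included, summed to 1533, 1442, 1609 and 1303 CPM (the UMIs of a gene per 1000000 summed UMIs). The sums were 214 to 411 CPM in Cyp17a1-high cells and 1187 to 1517 CPM in kept cells outside the theca rule. Enpep, for which these clusters were named, alone stood at 565 and 563 CPM in clusters 2 and 8, so its part of the sum was set by that choice. Other genes did not side with stroma: Nr5a1 stood at 91.1 and 87.8 CPM in clusters 2 and 8, against 43.7, 27.3, 75.5 and 31.1 CPM in clusters 1, 3, 4 and 6. Cyp17a1, a gene of the rule, stood at 67.3 and 43.2 CPM against 33.7, 3.28, 45.0 and 14.7 CPM. Without the clusters of other cell types, members were 1.18%, 1.69%, 5.93% and 5.48% of kept cells, a setting added after the values were seen. These figures give the makeup of each library's members and not a change in the number of any cell type, since the genes that place cells in clusters differ between libraries.

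**Figure D2:**
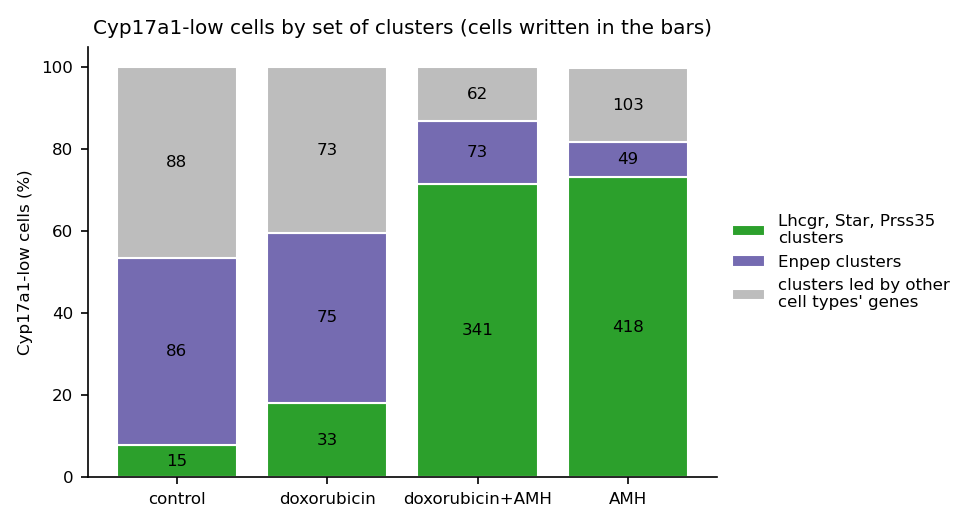
Share of each library's members (y axis, %) in the theca-marker, Enpep and other-type clusters, with the number of cells written in the bars. The theca-marker clusters hold 341 and 418 cells in the AMH libraries and 15 and 33 in the others, while the Enpep clusters hold 49 to 86 in each.

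Among the clusters of other cell types, cluster 5 (185 cells) was smooth muscle-like, led by Myh11, Tagln, Actg2, Acta2 and Cnn1, and contributed 45, 43, 45 and 52 members. Cluster 7 (80 cells) was granulosa-like, with Kcnq5, Mctp1, Cst12, Shroom3 and Slc18a2 in front. Cluster 9 (30 cells) was endothelial-like, with Ccl21a, Mmrn1, Flt1, Cldn5 and Prox1. Cluster 11 (14 cells) was macrophage-like, with C1qa, Cd74, C1qb, Lyz2 and Cd52. Cluster 10 (17 cells, 13 of them from the AMH library) was led by the oviductin gene Ovgp1 with Tmem212, Ccdc153, A2ml1 and Ecrg4 and stayed unnamed. Doublet scores marked 28.6%, 31.3%, 56.7%, 42.9% and 47.1% of clusters 5, 7, 9, 11 and 10, against 0.366% to 3.74% of the theca-marker clusters and cluster 2 and 7.25% of cluster 8. Median UMIs were 21862, 27580, 56270.5, 22452 and 83190 in clusters 5, 7, 9, 11 and 10. They were 10555 to 18040 in the theca-marker clusters, 23478.5 in cluster 2 and 39501 in cluster 8.

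The levels of the markers given with the label in these clusters are a description and not a test. Star, which brings cholesterol to the inner mitochondrial membrane, stood at 552, 261, 230 and 162 CPM in clusters 1, 3, 4 and 6, and at 165 CPM in cluster 10. In the Enpep clusters 2 and 8 it stood at 99.6 and 49.7 CPM. Prss35, a secreted serine protease-like protein, stood at 645 to 1094 CPM in the theca-marker clusters, at 340 and 339 CPM in clusters 2 and 8 at 205 CPM in the smooth muscle-like cluster and at 402 CPM in the macrophage-like cluster 11. Kcnk3, a potassium channel, was seen in 50.4% to 75.5% of cells of each theca-marker cluster in 16.8% and 11.6% of clusters 2 and 8, and in 40.0%, 28.8%, 33.3%, 64.7% and 50% of clusters 5, 7, 9, 10 and 11. Asb4 did not follow the sets: it stood at 224, 206, 65.2 and 288 CPM in clusters 1, 3, 4 and 6, at 89.0 and 44.6 CPM in clusters 2 and 8, and at 416 CPM in cluster 11. Pde10a stood at 1567, 731, 527 and 957 CPM in clusters 1, 3, 4 and 6 and at 370 and 413 CPM in clusters 2 and 8. Ptch1 and Hhip, both induced by hedgehog signalling, were seen in 95.3% and 91.1% of cluster 2 and in 97.1% and 95.7% of cluster 8. In the theca-marker clusters 1, 3, 4 and 6, Ptch1 was seen in 55.7%, 48.1%, 48.8% and 85.2% of cells and Hhip in 15.4%, 12.1%, 10.7% and 53.9%. Cluster 6 also had Enpep in 69.6% of its cells.

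The theca-marker clusters of the AMH libraries were set beside Cyp17a1-high cells of all 4 libraries. The choice of both used the same counts, so these are descriptions, and control and doxorubicin had too few theca-marker members (15 and 33) to be set beside them. Of 6272 genes that averaged 20 CPM or more, 2.15% were higher by 2-fold or more in AMH theca-marker members than in control Cyp17a1-high cells, and 3.87% were lower. Ratios are log2 after adding 5 CPM to both sides. In doxorubicin+AMH against doxorubicin Cyp17a1-high cells, 2.49% were higher and 3.99% lower. Within a library, against its own Cyp17a1-high cells, 0.934% of 6100 genes were higher and 1.25% lower in AMH, and 1.26% and 1.72% in doxorubicin+AMH.

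Targets of BMP and SMAD signalling were among the higher genes. Of 6 tested members of a list of 14, 5 were higher by 2-fold or more in each comparison across libraries, as were 2.15% and 2.49% of all genes (median log2 ratios 1.59 and 1.70, against −0.08 and −0.05 over all tested genes). Within libraries, 3 of 7 were past 2-fold in AMH (median 0.93; 0.934% of all genes) and 5 of 7 in doxorubicin+AMH (median 1.30; 1.26% of all genes). Id3, an inhibitor of basic helix-loop-helix factors and a direct SMAD target, stood at 665 CPM (646 to 685) in doxorubicin+AMH and 612 CPM (595 to 630) in AMH theca-marker members. In Cyp17a1-high cells Id3 stood at 89.4, 78.3, 192 and 263 CPM. The 2 AMH libraries thus had more Id3 than the other 2 in the Cyp17a1-high cells as well, though less than in their theca-marker members.

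Id1 stood at 191 and 194 CPM in theca-marker members of doxorubicin+AMH and AMH, and at 54.8, 60.7, 53.7 and 72.9 CPM in Cyp17a1-high cells. Id2 stood at 274 and 268 CPM against 92.1, 72.4, 118 and 150 CPM. The inhibitory SMADs, which feed back on the pathway, were also higher: Smad7 at 68.9 and 66.9 CPM against 17.2, 15.9, 23.8 and 32.8, and Smad6 at 30.1 and 31.7 CPM against 3.48, 4.81, 9.22 and 10.4. An Id3 UMI was seen in 95.9% and 94.0% of theca-marker members and in 59.9%, 64.1%, 79.0% and 84.4% of Cyp17a1-high cells. Thinned to 5000 UMIs per cell, which left out 9 and 8 theca-marker members and 21, 9, 2 and 1 Cyp17a1-high cells, these shares were 87.7% and 81.2% against 26.1%, 25.8%, 39.8% and 51.7%.

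Of 21 tested genes of cholesterol supply, 14 were lower by 2-fold or more in AMH theca-marker members than in control Cyp17a1-high cells and 15 in doxorubicin+AMH against doxorubicin (medians −1.59 and −1.61), where 3.87% and 3.99% of all genes were lower and the medians over all genes were −0.08 and −0.05. Within libraries, 7 of 17 were lower in AMH (median −0.97; 1.25% of all genes) and 10 of 17 in doxorubicin+AMH (median −1.02; 1.72% of all genes). Idi1, the isopentenyl-diphosphate isomerase, stood at 21.2 CPM (17.9 to 24.9) and 24.7 CPM (21.4 to 28.4) in theca-marker members of doxorubicin+AMH and AMH, and at 155, 168, 148 and 99.0 CPM in Cyp17a1-high cells. Fdps, the next enzyme of the isoprenoid path, stood at 34.4 and 40.7 CPM against 225, 223, 177 and 144 CPM. A predicted gene overlaps Fdps on the same strand, so its reads could be shared.

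Hmgcs1, the synthase of hydroxymethylglutaryl-CoA, stood at 121 and 127 CPM against 393, 382, 260 and 253 CPM. Cyp51, a sterol demethylase late in the path, stood at 39.4 and 31.1 CPM against 195, 188, 167 and 107 CPM. Scarb1, which takes up cholesteryl esters from high-density lipoprotein, stood at 338 and 304 CPM against 810, 731, 796 and 759 CPM. For all of these the theca-marker members of both AMH libraries lay below the Cyp17a1-high cells of every library.

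Of 9 tested steroid synthesis genes outside the rule, 4 and 3 were lower by 2-fold or more across libraries (medians −0.96 and −0.69; 3.87% and 3.99% of all genes). Within libraries, 1 was lower in AMH and 0 in doxorubicin+AMH (both medians −0.54; 1.25% and 1.72% of all genes), from which nothing is read. Fdx1, the electron donor of Cyp11a1, stood at 2128 and 1662 CPM against 4217, 4124, 3965 and 3386 CPM. Fdxr, its reductase, stood at 142 and 135 CPM against 372, 371, 229 and 249 CPM. Lhcgr and Star were used by the rule in both sets of cells, so their levels are given as values only. Lhcgr stood at 345 and 386 CPM against 421, 483, 454 and 516 CPM, and Star at 464 and 332 CPM against 443, 368, 435 and 501 CPM.

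**Figure D3:**
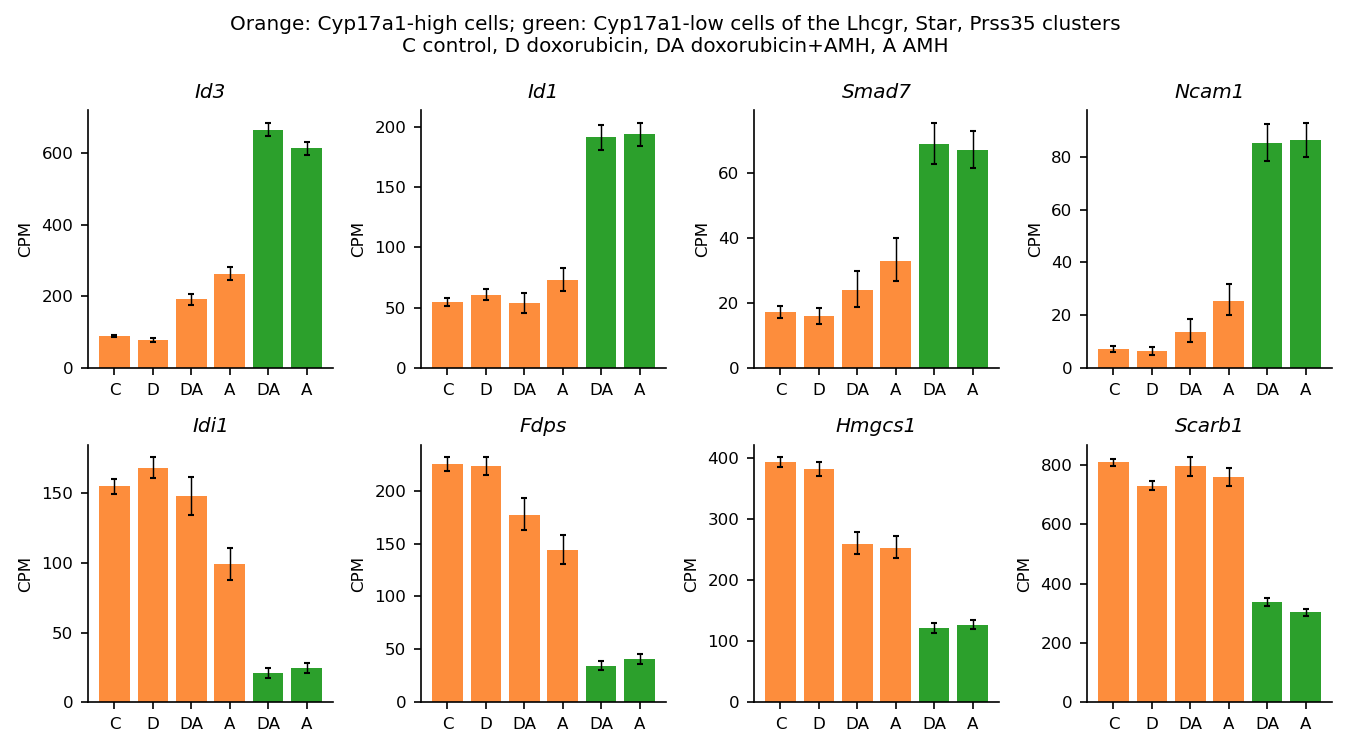
CPM (bars, with Poisson counting intervals) of the BMP/SMAD targets Id3, Id1 and Smad7, of Ncam1 and of the cholesterol supply genes Idi1, Fdps, Hmgcs1 and Scarb1 in Cyp17a1-high cells of 4 libraries (orange) and theca-marker members of the 2 AMH libraries (green). Id3 lies above and Idi1 below every Cyp17a1-high library, at 612 to 665 CPM against 78.3 to 263, and at 21.2 to 24.7 CPM against 99.0 to 168.

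Other genes of a different kind stood apart within the same library, named by their ratio after the values were seen. Ncam1, a neural cell adhesion molecule, stood at 85.1 and 86.3 CPM in theca-marker members of doxorubicin+AMH and AMH against 7.06, 6.36, 13.7 and 25.4 CPM in Cyp17a1-high cells. Dpp6, a partner of potassium channels, stood at 299 and 321 CPM against 37.6, 39.7, 77.5 and 80.9 CPM. Igfbp5, a binding protein of insulin-like growth factors, stood at 125 and 109 CPM against 14.8, 7.04, 15.6 and 25.4 CPM. For each of these 3 genes the Cyp17a1-high cells of the AMH libraries lay above those of the other 2 libraries and below the theca-marker members.

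Among the lower genes, Fads2, a fatty acid desaturase, stood at 41.0 and 36.9 CPM against 404, 477, 222 and 190 CPM. Fabp3, a fatty acid binding protein, stood at 61.9 and 58.1 CPM against 653, 714, 154 and 187 CPM. Bmp6, a BMP ligand, stood at 7.01 and 7.46 CPM against 102, 64.6, 24.8 and 25.7 CPM. Here too the Cyp17a1-high cells of the AMH libraries lay between the others. Of 19 tested genes of the response to tissue dissociation, 5 and 2 were higher by 2-fold or more across libraries, as were 2.15% and 2.49% of all genes. A ratio above 0 was found for 19 and 18 of these 19 (medians 0.68 and 0.37), and for 39.6% and 43.6% of all genes. The summed level of the dissociation genes was 15848 and 15540 CPM in theca-marker members against 10690 to 12383 CPM in Cyp17a1-high cells. Their part in these differences was not tested. Of the summed markers of other cell types in theca-marker members of doxorubicin+AMH and AMH, smooth muscle stood at 60.6 and 53.6 CPM, blood endothelium at 34.9 and 41.0 CPM and macrophages at 15.5 and 13.7 CPM. These lay below the Cyp17a1-high cells of the same library, at 68.3 and 77.2, 35.9 and 49.8, and 238 and 42.5 CPM. The smooth muscle-, endothelial- and macrophage-like clusters had been taken out on the side of the members only. Cyp17a1-high cells were not clustered, so lower sums in theca-marker members follow in part from that choice, and nothing is read from them. Stroma markers stood at 374 and 428 CPM against 411 and 358 CPM in the same libraries' Cyp17a1-high cells, and granulosa markers at 366 and 384 CPM against 367 and 371 CPM.

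Few genes parted the theca-marker members of doxorubicin+AMH from those of AMH. Of 6113 genes tested, 3 were higher and 3 lower by 2-fold or more (0.0491% each). The higher 3 were the globin genes Hbb-bs, Hba-a1 and Hba-a2, and 1 cell held 97.7% of the Hbb-bs UMIs. The lower 3 were the heat-shock genes Hspa1b (log2 ratio −1.52), Hspa1a (−1.26) and Hsph1 (−1.10), and Hspa1a and Hspa1b are near-identical copies whose reads are uncertain. None of 9 tested p53 targets was past 2-fold (median 0.04). Cdkn1a, the p53 target that encodes the cell-cycle inhibitor p21, stood at 27.0 CPM (23.3 to 31.2) in doxorubicin+AMH and 15.4 CPM (12.8 to 18.4) in AMH theca-marker members. The 33 theca-marker members of the doxorubicin library had 146 CPM (113 to 184), with 45.7% of its UMIs in 1 cell.

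The Enpep clusters were present in all 4 libraries and were set side by side. Their cells were chosen by measured values, so libraries with and without AMH may hold differently chosen cells. Cluster 6, placed with the theca-marker clusters, had Enpep in 69.6% of its cells and held 1, 8, 53 and 53 members. The part of this choice in the contrasts of the Enpep clusters was not tested. p53 targets were higher with doxorubicin: 9 of 16 tested were past 2-fold against control (median 1.28, against 0.01 over all 6390 genes, of which 0.313% were called higher). In doxorubicin+AMH against AMH, which shares no library with that comparison, 4 of 16 were past 2-fold (median 0.57; 0.657% of all genes). In AMH against control none of the 16 was past 2-fold (median 0.12; 0.219% of all genes higher and 1.17% lower).

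Cdkn1a stood at 11.6 CPM (7.72 to 16.8) in control, 287 CPM (265 to 310) with doxorubicin, 102 CPM (90.0 to 115) with doxorubicin+AMH and 20.7 CPM (14.0 to 29.6) with AMH. Its intervals did not overlap between libraries with and without doxorubicin, and the log2 ratios were 4.14 against control and 2.06 against AMH. Cdkn1a lies on chromosome 17 from 29090976 to 29100727 on the plus strand. A Cdkn1a UMI was seen in 12 of 86, 38 of 75, 38 of 73 and 11 of 49 Enpep cells, or 14.0%, 50.7%, 52.1% and 22.4%. Thinned to 5000 UMIs, which left out 1 doxorubicin cell, the shares were 2.33%, 31.1%, 24.7% and 8.16%. In kept cells outside the theca rule a Cdkn1a UMI was seen in 23.9%, 35.5%, 27.1% and 24.6%, and Cdkn1a stood at 34.7, 146, 48.3 and 33.0 CPM, so a higher level with doxorubicin was not particular to these cells.

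Other p53 targets were also higher in both doxorubicin libraries. Ccng1, cyclin G1, stood at 17.0, 93.5, 47.5 and 20.04 CPM. Eda2r, a receptor of the tumour necrosis factor family, stood at 13.7, 83.7, 30.7 and 6.91 CPM. Phlda3, an inhibitor of Akt, stood at 14.1, 69.5, 31.9 and 12.4 CPM. Each was highest with doxorubicin and next highest with doxorubicin+AMH. Zmat3, an RNA-binding protein, stood at 8.71, 55.8, 18.8 and 9.68 CPM, and Mdm2, the ubiquitin ligase that degrades p53, at 39.8, 97.9, 53.1 and 35.9 CPM. Bax, which permeabilizes mitochondria in apoptosis, stood at 99.1, 190, 174 and 111 CPM and did not reach 2-fold.

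The level with doxorubicin+AMH was below that with doxorubicin alone for 5 of 16 p53 targets by 2-fold or more (median −0.51; 0.344% of all genes were called lower), but this rested on the cycling cluster. In cluster 8 (17, 23, 19 and 10 cells), Cdkn1a stood at 8.78, 587, 97.8 and 44.7 CPM. There, 13 of 19 tested p53 targets were higher with doxorubicin than in control (median 1.49; 1.21% of all genes). In doxorubicin+AMH against doxorubicin, 10 of 19 were lower (median −1.09; 1.39% of all genes), and 4 of 19 were higher than in AMH (median 0.26; 3.18% of all genes).

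In cluster 2 (69, 52, 54 and 39 cells), Cdkn1a stood at 12.7, 86.4, 105 and 12.9 CPM, so that its level with doxorubicin+AMH was not below that with doxorubicin alone. Of 13 tested p53 targets, 3 were higher with doxorubicin than in control (median 0.62; 0.357% of all genes) and 3 in doxorubicin+AMH against AMH (median 0.43; 0.65%). None was lower by 2-fold in doxorubicin+AMH than in doxorubicin (median 0.21; 0.487%), and 1 was higher. Ccng1 stood at 15.05, 46.5, 58.0 and 13.8 CPM in cluster 2 and at 22.0, 164, 30.9 and 39.1 CPM in cluster 8. Eda2r stood at 9.26, 31.8, 33.2 and 0.919 CPM in cluster 2 and at 24.9, 162, 26.8 and 25.1 CPM in cluster 8. The summed level of G2/M genes over both clusters was 1543, 2217, 1742 and 1489 CPM, highest with doxorubicin, and its part in the p53 values was not tested.

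**Figure D4:**
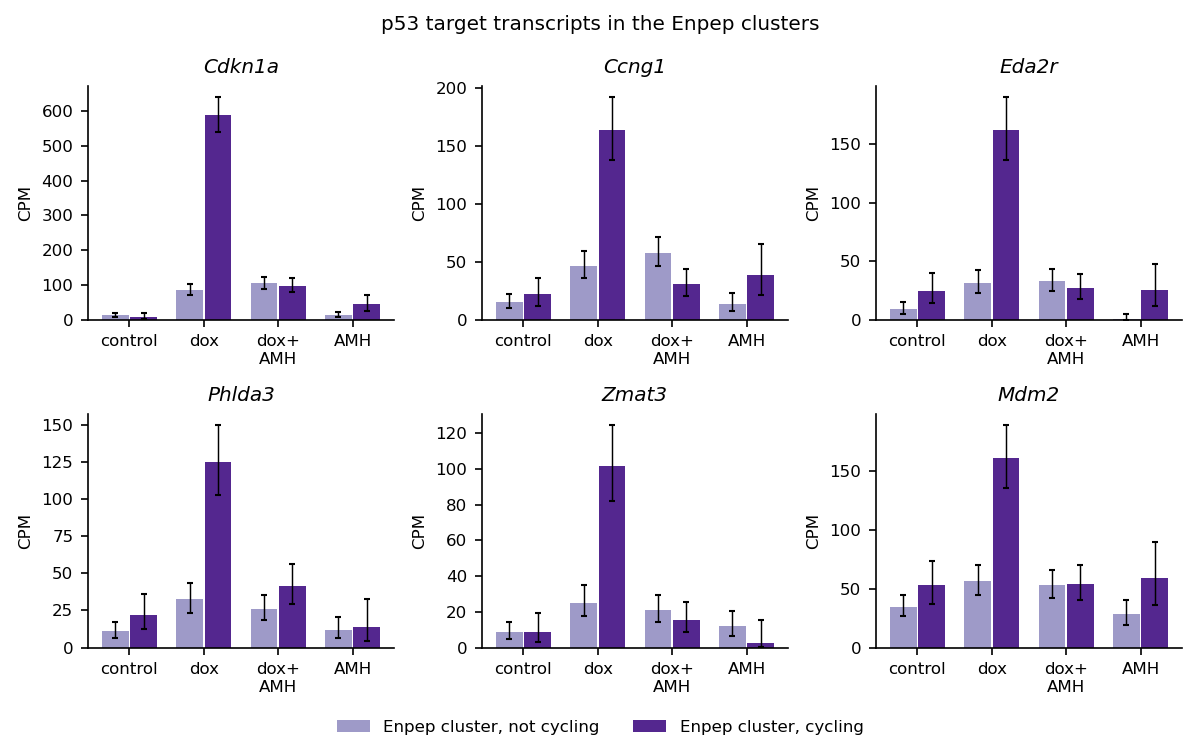
CPM (bars, with Poisson counting intervals) of 6 p53 targets in Enpep cluster 2 (light) and Enpep cluster 8 (dark), by library, where dox stands for doxorubicin. Cluster 2 is labelled not cycling and cluster 8 cycling, but a Mki67 UMI was seen in 17.8% of cluster 2 and 98.6% of cluster 8. Cdkn1a stands at 587 CPM in cluster 8 and 86.4 CPM in cluster 2 with doxorubicin, and at 97.8 and 105 CPM with doxorubicin+AMH.

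Ano3, a gene of the anoctamin family of membrane scramblases, had a larger ratio of doxorubicin to control than Cdkn1a (log2 4.55). In the Enpep clusters it stood at 2.07 CPM (0.673 to 4.84), 161 CPM (145 to 179), 47.9 CPM (39.7 to 57.3) and 0 CPM (0 to 2.55), and its UMIs came from 4, 28, 23 and 0 cells. In cluster 2 Ano3 stood at 1.74, 55.4, 52.8 and 0 CPM, and in cluster 8 at 2.93, 320, 40.2 and 0 CPM. Ano3 lies on chromosome 2 from 110655201 to 110950923 on the minus strand, and Muc15 overlaps it on the other strand. It was among the 8 highest genes by the naming rule for doxorubicin, where all members together stood at 2.38, 74.8, 13.5 and 0.15 CPM. Cyp17a1-high cells had 0.525, 15.2, 9.22 and 0.334 CPM of Ano3. In the Enpep clusters, in all members and in Cyp17a1-high cells, Ano3 was thus higher in each doxorubicin library than in each library without it.

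Sox5 and Dach1, chosen after their values were seen, were lower in the Enpep cells of both AMH libraries. Sox5, a SOX-family factor, stood at 559 CPM (530 to 590), 455 CPM (427 to 484), 238 CPM (219 to 258) and 234 CPM (209 to 260). Its log2 ratio was −1.24 in AMH against control and −0.92 in doxorubicin+AMH against doxorubicin. Sox5 lies on chromosome 6 from 143828425 to 144781977 on the minus strand. Dach1, a homologue of the fly gene dachshund, stood at 428 CPM (402 to 455), 377 CPM (352 to 403), 183 CPM (167 to 201) and 187 CPM (165 to 210), with ratios of −1.17 and −1.02. For both genes the AMH libraries lay below the other 2 with no overlap of the counting intervals.

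In each Enpep cluster both AMH libraries were also lower. Sox5, Dach1 and Ano3 are long genes, and whether reads from their introns were counted is not given in the sources used here. Sox5 stood at 524, 456, 255 and 229 CPM in cluster 2 and at 648, 454, 212 and 248 CPM in cluster 8. Dach1 stood at 476, 427, 225 and 206 CPM in cluster 2 and at 304, 302, 117 and 128 CPM in cluster 8. A Sox5 UMI was seen in 85, 73, 70 and 48 cells, nearly all of each library's Enpep cells. In kept cells outside the theca rule Sox5 stood at 807, 700, 588 and 668 CPM and Dach1 at 158, 116, 102 and 100 CPM, and in Cyp17a1-high cells at 350, 309, 297 and 294 CPM and 192, 172, 124 and 151 CPM. The difference between these sets of cells was not tested.

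Tgfbi, a matrix protein induced by TGF-beta, was also lower in the Enpep clusters of both AMH libraries, at 38.6, 32.3, 8.38 and 7.602 CPM. So did Pid1, an adaptor protein, at 53.1, 63.8, 22.7 and 19.4 CPM, and Plcl1, a phospholipase C-like protein, at 100, 69.5, 31.5 and 22.1 CPM. Yes1, a Src-family kinase, was higher in both AMH libraries, at 60.6, 59.8, 111 and 113 CPM. Ibsp, a bone sialoprotein, stood at 2.49, 2.21, 22.7 and 72.6 CPM, but these UMIs came from 5, 2, 5 and 4 cells. These 7 genes, Sox5 and Dach1 among them, were chosen after their values were seen.

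Levels of hedgehog and BMP genes in the Enpep clusters are given beside these. None of 10 tested hedgehog genes was past 2-fold in any of the 4 contrasts (medians −0.05 in AMH against control and −0.03 in doxorubicin+AMH against doxorubicin), and none of 6 tested BMP targets (medians −0.17 and 0.30). With 0.219% of all genes called higher and 1.17% lower in AMH against control, and 0.532% and 0.344% in doxorubicin+AMH against doxorubicin, such counts do not set these lists apart. Ptch1, the hedgehog receptor, stood at 331, 332, 298 and 406 CPM, Hhip, which binds hedgehog ligands, at 354, 337, 340 and 364 CPM, and Gli1, the pathway's transcription factor, at 58.9, 37.6, 53.1 and 38.01 CPM. Id3 stood at 298 CPM (277 to 321), 237 CPM (218 to 258), 275 CPM (255 to 296) and 292 CPM (264 to 321), so its intervals overlapped between control and AMH. Id1 stood at 70.1, 61.1, 41.1 and 56.0 CPM. Enpep itself stood at 548, 502, 649 and 541 CPM and Lhcgr at 237, 190, 185 and 178 CPM. Of other cell types' markers, smooth muscle genes summed to 275, 299, 599 and 190 CPM and erythroid genes to 7.47, 15.1, 3077 and 10.4 CPM, highest in doxorubicin+AMH in both cases, and their part in the values above was not tested.

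**Figure D5:**
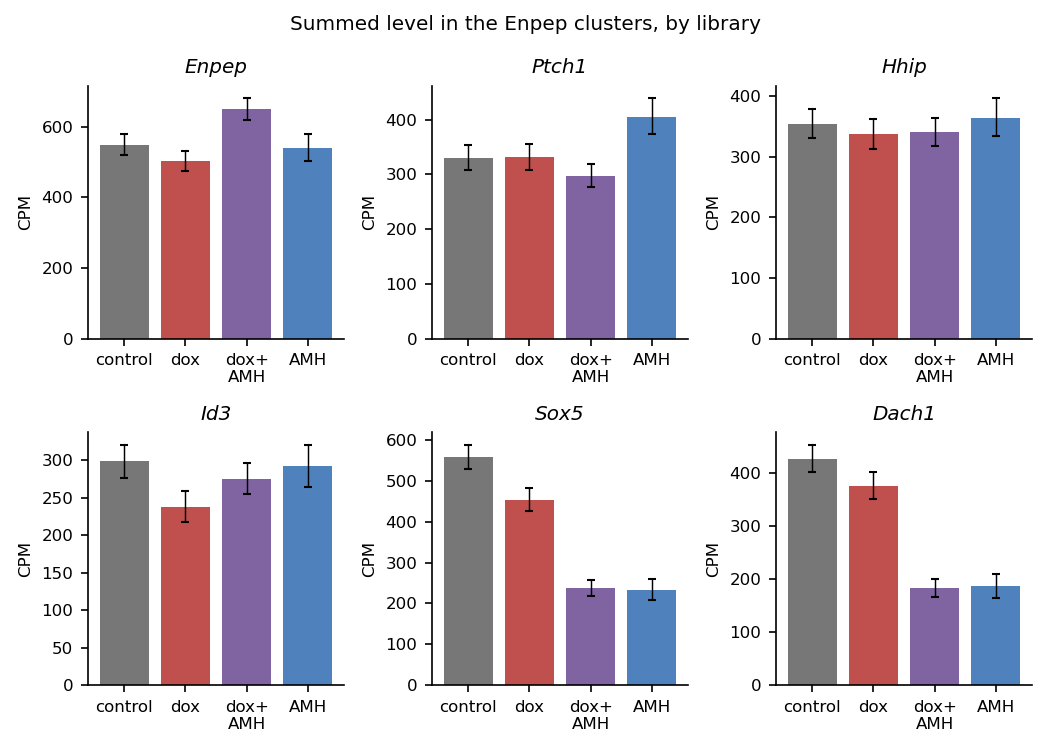
CPM (bars, with Poisson counting intervals) of Enpep, Ptch1, Hhip, Id3, Sox5 and Dach1 summed over the Enpep clusters, by library, where dox stands for doxorubicin. Sox5 and Dach1 are lower in both AMH libraries, at 183 to 238 CPM against 377 to 559, while the other 4 genes show no such split.

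Over all members together, the AMH contrasts set libraries of different cluster makeup side by side. Of 6785 genes tested, 114 were higher (1.68%) and 327 lower (4.82%) by 2-fold or more in AMH than in control, and 93 higher (1.37%) and 206 lower (3.04%) in doxorubicin+AMH than in doxorubicin. The medians over all genes were −0.12 and −0.11 and would be 0 under median-of-ratios scaling, so ratios are read against them. Fewer genes parted doxorubicin from control (7 higher, 0.103%, and 21 lower, 0.31%) or doxorubicin+AMH from AMH (10 higher, 0.147%, and 17 lower, 0.251%). These counts moved with the choice of cells: without the clusters of other cell types the higher counts were 226, 161, 20 and 12 in the 4 contrasts in this order, and with at least 2 Lhcgr UMIs they were 170, 89, 47 and 5. The lower counts were 272, 162, 16 and 2, and 239, 142, 20 and 9.

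Genes of the response to tissue dissociation differed in the AMH contrasts of all members too. Of 19 tested, 3 were higher by 2-fold or more in AMH against control (median 0.48; 1.68% of all genes) and 1 in doxorubicin+AMH against doxorubicin (median 0.30; 1.37% of all genes), and the latter count is near its share. A ratio above 0 was found for 19 and 17 of them, and for 34.7% and 31.7% of all genes. Their summed level was 9995, 11469, 13914 and 14174 CPM, and its part in these contrasts was not tested.

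Among the 10 highest genes of the AMH contrasts by the naming rule, Kcnk3, Abhd2, Klhl14, Cxcl1, Cxcl10 and Pappa were also among the 10 leading genes of a theca-marker cluster. Kcnk3 stood at 12.1, 22.4, 105 and 112 CPM, and Abhd2, a lipid hydrolase, at 65.1, 82.3, 372 and 310 CPM. Mt1, a metallothionein that binds zinc and copper, stood at 436, 536, 1855 and 1866 CPM, and the chemokines Cxcl1 and Cxcl10 at 21.7, 28.8, 129 and 120 CPM and at 16.3, 16.2, 67.4 and 70.2 CPM. Efhd1 and Serpinb9 were also among the 10 highest. Of the 6 markers given with the label, Lhcgr and Star were also used by the rule, so all 6 are given as values and not counted as support. Star stood at 70.3, 51.1, 315 and 244 CPM, Prss35 at 184, 219, 549 and 584 CPM, and Lhcgr at 127, 139, 262 and 290 CPM. Asb4, a subunit of a ubiquitin ligase, stood at 55.6, 32.9, 162 and 159 CPM, and Pde10a, a phosphodiesterase of cyclic nucleotides, at 291, 163, 1146 and 598 CPM. For each of the 4 markers that the rule did not use, Kcnk3 included, both AMH libraries lay above the other 2.

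The lowest genes of the AMH contrasts were led by genes of cells that other clusters held. Shroom3, an actin regulator that also leads the granulosa-like cluster, stood at 216, 136, 10.97 and 26.4 CPM, and Slc18a2, a vesicular monoamine transporter among the granulosa markers, at 53.2, 62.1, 4.54 and 7.29 CPM. Cldn5, an endothelial tight-junction protein, stood at 65.4, 80.5, 20.8 and 14.8 CPM. Chn2, Adamts19, Kcnq5, Kctd14, Plxna4, Bmpr1b and Tenm4 completed these 10. Summed markers moved with them: smooth muscle at 1505, 1486, 793 and 659 CPM, granulosa at 703, 784, 348 and 423 CPM, blood endothelium at 574, 484, 185 and 161 CPM. Their part in the contrasts was not tested.

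Of 13 tested G2/M genes, none had a ratio above 0 in either AMH contrast, where 34.7% and 31.7% of all genes did. By 2-fold or more, 13 were lower in AMH than in control (median −1.37, with 4.82% of all genes called lower) and 9 in doxorubicin+AMH than in doxorubicin (median −1.06, with 3.04%). Top2a stood at 186, 194, 83.5 and 55.0 CPM. Over all theca-rule cells with no limit, the median of the G2/M genes in AMH against control was instead 0.22, so this direction depended on the limit. Of 19 tested matrix genes, 11 were lower by 2-fold or more in AMH against control (median −1.04, with 4.82% of all genes called lower) and 2 in doxorubicin+AMH against doxorubicin (median −0.69, with 3.04%), with Col1a1 at 385, 353, 185 and 136 CPM.

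Some p53 targets were also higher with doxorubicin over all members. Cdkn1a stood at 25.5 CPM (21.6 to 29.9), 194 CPM (182 to 206), 51.5 CPM (47.5 to 55.8) and 23.1 CPM (20.5 to 25.8), Ccng1 at 14.6, 61.9, 24.9 and 17.0 CPM, and Phlda3 at 16.6, 47.0, 18.0 and 12.8 CPM. Of 14 tested p53 targets, 3 were past 2-fold in doxorubicin against control (median 0.60, with 0.103% of all genes called higher) and 1 in doxorubicin+AMH against AMH (median 0.13, with 0.147%). Cyp17a1-high cells had Cdkn1a at 12.6, 69.6, 40.0 and 13.7 CPM, and 2 of 10 tested p53 targets past 2-fold with doxorubicin (median 0.35; 0.0806% of 6204 genes). Besides Ano3 and Cdkn1a, the highest genes of the doxorubicin rule were Epb41l3, Hist1h1b, Ednrb, Tcf21, Gria3 and Snhg15, with the smaller ratio of each between 0.49 and 0.62.

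Among the lowest genes of the doxorubicin rule, Ovgp1 and Ecrg4 rested on few cells. Ovgp1 stood at 181, 3.12, 3.77 and 60.5 CPM, and 1 control cell held 92.1% of its control UMIs. Ecrg4 stood at 37.7, 5.69, 6.94 and 58.1 CPM, with 85.6% of control and 81.2% of AMH UMIs in 1 cell each. Fam13a, Mctp1, Krt18, Kcnb2, Kcnq5 and Glis3 had smaller ratios of −0.70 to −0.87. In doxorubicin+AMH against doxorubicin alone, Hbb-bs (log2 ratio 5.47), Hba-a1 (4.603) and Hba-a2 (4.05) were highest, and Shroom3, Slc18a2 and Wt1 lowest.

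Against Cyp17a1-high cells within each library, 80 of 6542 genes (1.22%) were higher by 2-fold or more in members of 4 of 4 libraries and 47 (0.718%) lower. The higher genes were led by Ccl21a, Acta2, Myh11, Tagln, Prkg1, Flt1, Mmrn1 and Actg2, most of them genes of smooth muscle and endothelium. Without the clusters of other cell types, added after the values were seen, 5 of 6327 genes (0.079%) were higher and 34 (0.537%) lower. The lower genes were led by Defb19, Cst8, Fads2, Fabp3, Idi1, Spink4, Fdps and Alas1. Idi1 stood at 25.5, 34.9, 25.5 and 24.7 CPM in members against 155, 168, 148 and 99.0 CPM in Cyp17a1-high cells. Of 20 tested cholesterol supply genes, 9 were lower in 4 of 4 libraries. The split by Cyp17a1 and Cyp11a1 chose these cells, so nothing further is read from these counts.

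Against kept cells outside the theca rule, which leaves out the Cyp17a1-high cells, 18 of 6901 genes (0.261%) were higher by 2-fold or more in members of 4 of 4 libraries. They were led by Ryr2, the calcium release channel of the endoplasmic reticulum (smallest log2 ratio 1.66), and Prss35 (1.63), followed by Sct, Gsta2, Grm7, Rgs6, Stc1, Smoc2, Hs6st2 and Cox7a1. Stc1, stanniocalcin, is known as a secreted product of theca cells. Cyp17a1-high cells held Stc1 and Prss35 too, with Stc1 at 330, 219, 172 and 126 CPM against 101, 108, 114 and 95.5 CPM in members, and Prss35 at 448, 388, 567 and 583 CPM against 184, 219, 549 and 584 CPM.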

How the data were processed

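Per the file headers, the authors made the deposited matrices with Cell Ranger 7.0.0. The values are raw counts of UMIs for 32285 genes per cell, not normalized. The submitters' processing notes name mm10, R 4.2.0 and Seurat 4.1.0, with no role given, and whether intronic reads were counted is not given in the sources used here. The libraries held 9202, 7141, 7818 and 9478 deposited cells, and 8588, 6406, 6983 and 8546 passed the filters on UMIs (1000) and mitochondrial share (20%).

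Members and gene lists were chosen with earlier results of these data known. UMIs of members were summed per library to CPM; log2 ratios use a pseudocount of 5 CPM and genes averaging 20 CPM or more, and 2-fold is the threshold. Summed members' UMIs were 5885926, 5443508, 11668365 and 13314963. Shares carry exact Clopper-Pearson and levels exact Poisson 95% intervals. With 1 library per group no test was run. Members were clustered by Leiden (leidenalg 0.10.2, scanpy 1.11.5, 20 principal components, 15 neighbours, resolution 0.6) without the rule's genes. Scrublet scores were marked at 0.8% per 1000 cells and doublets were kept. Thinning was a single draw to 5000 UMIs, leaving out shallower cells. Scripts ran in Python 3.11.15 with numpy 2.4.6, pandas 2.3.3 and scipy 1.17.1, and the ratio step was tested on simulated data.

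Genes are named by rule: the 10 highest and 10 lowest by the smaller of the AMH ratios, 8 and 8 for doxorubicin, 3 and 3 for doxorubicin+AMH against doxorubicin, 8 and 8 against Cyp17a1-high cells, 10 against kept cells outside the theca rule, and list members past 2-fold or highest in CPM. Some genes that the rule names are not reported here. Genes outside it are said to be chosen after their values were seen. Coordinates are from the GENCODE mouse annotation on mm10. Alternatives covered the limits on Cyp17a1 plus Cyp11a1, Lhcgr, UMIs and mitochondrial share, depth, doublets, scaling, pseudocount and filter. The limits on Fshr, Inhba and the 6 theca genes were not varied.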

Additional observations from a re-analysis of the deposited data

Results flagged for a closer look

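For 6 genes the doxorubicin ratio (log2, all members) pointed one way without AMH and the other way with it; the difference itself was not tested. Rgs5, a pericyte gene, had a ratio of 1.30 in doxorubicin against control and −1.41 in doxorubicin+AMH against AMH, from levels of 18.2, 52.2, 7.37 and 27.9 CPM in 8 to 13 cells per library. Prox1, a lymphatic endothelial transcription factor, had −1.52 and 2.10, with 77.4% of control and 90.1% of doxorubicin+AMH UMIs in 1 cell each. The globin genes had −5.86 and 6.05 (Hbb-bs), −4.72 and 3.90 (Hbb-bt), −5.30 and 4.78 (Hba-a1) and −4.84 and 4.396 (Hba-a2). In control, 98.8% of 4943 Hbb-bs UMIs came from 1 cell, and in doxorubicin+AMH 43.0% of 7482 did.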

How the results depend on the processing

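No paired analysis was possible because each group has 1 library. The alternatives listed under processing were run; the limits on Fshr, Inhba and the 6 theca genes were not varied. Of 197 alternative values of the shares and counts, 126 moved by less than counting error or less than 1.5 times and 71 moved further. The cause of the moves was not tested. Member shares (control, doxorubicin, doxorubicin+AMH, AMH) were 2.95%, 3.57%, 7.48% and 7.24% with a limit of 20 per 10000, 10.4%, 8.60%, 8.32% and 7.73% with no limit (where both AMH libraries lie below the other 2), 1.05%, 1.499%, 5.06% and 5.00% with at least 2 Lhcgr UMIs, 0.833%, 0.951%, 5.07% and 6.04% thinned to 5000 UMIs, and 1.18%, 1.69%, 5.93% and 5.48% without other cell types' clusters. With a limit of 5 they were 1.86% (control), 6.09% (doxorubicin+AMH) and 6.13% (AMH).

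Genes higher and lower in AMH against control were 178 and 554 with a mean of at least 5 CPM, 202 and 582 with no filter and 44 and 123 with no limit. The higher count was 72 with a limit of 20 and 226 without other cell types' clusters. In doxorubicin+AMH against doxorubicin, 146 were higher and 401 lower with no filter and 47 and 115 with no limit. The lower count was 380 at 5 CPM, and the higher count 59 with a limit of 20 and 161 without other cell types' clusters. In doxorubicin against control the counts were 22 and 69 at 5 CPM, 28 and 103 with no filter and 3 and 9 with no limit. The lower count was 13 with a limit of 20. The higher count was 11 with a limit of 5, 47 with 2 Lhcgr UMIs, 12 with cells weighted equally, 11 with a pseudocount of 1 CPM and 20 without other cell types' clusters. In doxorubicin+AMH against AMH they were 21 and 80 at 5 CPM, 24 and 137 with no filter and 5 and 9 with 2 Lhcgr UMIs. The lower count was 9 with no limit, 6 with cells weighted equally, 28 with a pseudocount of 1 CPM and 2 without other cell types' clusters.

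Genes higher than in Cyp17a1-high cells numbered 51 with a limit of 5, 30 with 2 Lhcgr UMIs, 48 with cells weighted equally, 128 at 5 CPM and with no filter, and 5 without other cell types' clusters. In the Enpep clusters, p53 targets lower with doxorubicin+AMH than with doxorubicin were 3 with a limit of 5 and with cells weighted equally, 2 with 2 Lhcgr UMIs and 0 without the cycling cluster. Without that cluster, p53 targets higher with doxorubicin numbered 3. Settings without a cluster were added after the data were seen.

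Of 1599 values for single genes and lists, 251 moved and 2 reversed, both in AMH against control or its pair with no limit on Cyp17a1 and Cyp11a1: the G2/M median became 0.22 and the smaller AMH ratio of Efhd1 −0.25. With no limit, members cannot be set against Cyp17a1-high cells. Depth limits genes below 20 CPM, and 1 cell can hold most UMIs of a gene above that level too. Pooled ovaries leave the spread between animals unknown.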
